A study of Homo sapiens with 24 samples.

Results

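The response of SK-N-BE(2), a human neuroblastoma cell line, to GSK-J4 was described across every gene of the comparison table deposited for that line. The table holds 29328 of the 39772 genes that appear in any of the series' 4 tables and rests on 6 of the 24 libraries: 3 of cells given 1 µM GSK-J4 for 72 hours and 3 of untreated cells. The labels call SK-N-BE(2) resistant to GSK-J4 and MYCN-amplified. The lines set against it are LAN5 and IMR5, both MYCN-amplified, and SK-N-FI, which is not; all 3 are labelled sensitive and have the same 2 groups of 3 libraries each. SK-N-BE(2) is the only line labelled resistant, so resistance and every other property of this 1 line cannot be told apart. The labels do not say whether the 3 libraries of a group came from separate cultures, so the p-values rest on a spread that may be technical only. No values of single libraries were used here, so depth per library is unknown and no replicate values or standard deviations can be shown.

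GSK-J4 is a cell-permeable ester that cells convert into an inhibitor of KDM6A and KDM6B, the Jumonji enzymes that remove methyl groups from H3K27, a mark laid down by the Polycomb complex PRC2 and tied to silent genes. Jumonji enzymes hold iron and use 2-oxoglutarate, and GSK-J4 can bind other enzymes of the family. Neuroblastoma arises from sympathetic nerve precursors, and its noradrenergic identity is held by a circuit of transcription factors, among them HAND2, GATA3, TBX2 and MYCN, which also drive the genes for making and storing catecholamines.

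GSK-J4 left most of the SK-N-BE(2) transcriptome with small differences. Metallothionein and zinc transporter genes and genes of fatty acid and cholesterol synthesis rose, while noradrenergic transcription factors, tyrosine hydroxylase and chromogranins fell. The signs of MT2A and SLC30A1, among the first of these, set the direction taken and are no result. Targets of the stress factors ATF4 and CHOP, the Polycomb genes and nearly all cell cycle genes were not called, and neither were most tested genes. Of 13407 genes with an adjusted p-value in the authors' deposited table, 332 (2.48%) had one under 0.05 by the Wald test with Benjamini-Hochberg adjustment, and these are the genes called changed below. The 332 divide into 217 higher with GSK-J4 (1.62% of those tested) and 115 lower (0.858%). The other 15921 listed genes have no adjusted p, and the lowest mean normalized count among tested genes was 26.2. The median mean of called genes was 1052, against 476 for all tested genes, and 171 of the 332 had a mean of 1000 or more.

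The Wald statistic, a fold change in units of its error, is used here to rank genes, since the fold changes in this table were pulled strongly toward 0. Its median over all tested genes was -0.00245, with 6692 above 0 and 6715 below 0, and the smallest size among called genes was 3.23. The largest standard error in the authors' deposited table was 0.0828 on the log2 scale, and weak genes had smaller errors again, the pattern left by a normal prior (standard deviation 0.166) on fold changes. MT2A was the only called gene with a deposited log2 fold change of at least 1 in size. Where sizes or lines are compared, the pull was removed by calculation from these errors, and such values are called prior-removed; in SK-N-BE(2) they are approximate, since the deposited statistic was not exactly the fold change over its error (ratio between 0.778 and 1.15, median 1.00). For genes whose mean was 100 or more, prior-removed log2 fold changes had a standard deviation of 0.128 in SK-N-BE(2), against 0.754 in IMR5, 0.842 in LAN5 and 0.587 in SK-N-FI, and the median error was 0.0821 in SK-N-BE(2), against 0.0970 in IMR5, 0.0976 in LAN5 and 0.137 in SK-N-FI.

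**Figure D1:**
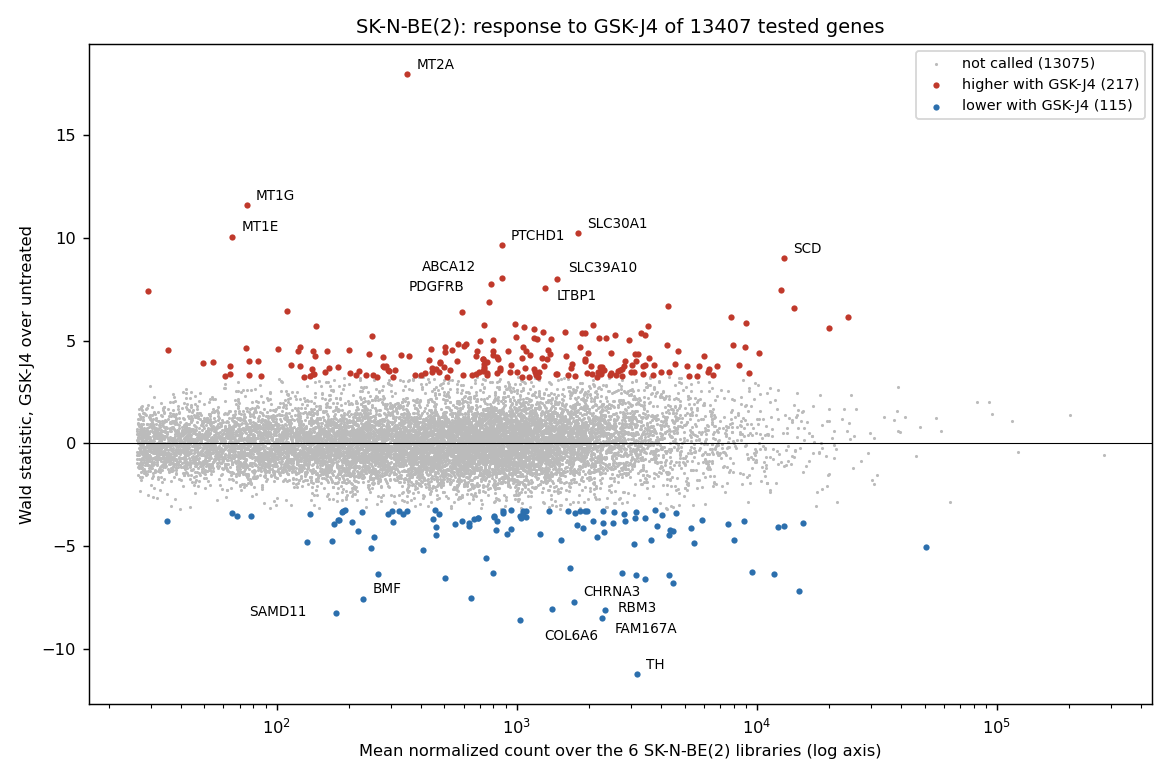
Wald statistic of GSK-J4 over untreated in SK-N-BE(2) (vertical axis) against the mean normalized count over its 6 libraries (horizontal axis, log scale), 1 point per tested gene, with called genes in red (217 higher) and blue (115 lower). MT2A stands highest at 18.0 and TH lowest at -11.2, and called genes occur over nearly the whole range of means.

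The files do not state the direction of the comparison. GSK-J4 over untreated is the reading taken here. In the sensitive lines it was taken from BBC3, which encodes the death protein PUMA, being higher, and in SK-N-BE(2) from MT2A and SLC30A1 having the sign that they have in the other lines, so the signs of these genes are part of the reading and not a finding; if the table were reversed, each rise and fall below would change places and the differences from the other lines would have other values. Markers of other cell types were counted beside those of neuroblastoma. All 10 adrenergic neuroblastoma markers were tested, with means summing to 102949, of which MYCN gave 38908. Of 12 immune and endothelial markers 9 were listed and none reached the tested range (means summing to 87.0, with CD14 highest at 24.8), and of 10 Schwann cell and glia markers SOX10, FOXD3 and CDH19 were not listed and PMP22, at 1392, held most of the sum of 1447. Fibroblast and muscle markers were well represented, with means summing to 33869, of which the matrix proteoglycan gene LUM gave 19924; MYOD1 was not listed. Of the 8 such markers tested, PDGFRB, COL3A1 and LUM rose and COL1A1 fell. In bulk RNA, fewer cells of a type and less RNA per cell cannot be told apart.

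Metal-handling genes held 4 of the 5 highest statistics. Metallothioneins are small cysteine-rich proteins that bind zinc and copper, SLC30A1 carries zinc out of the cell, and both are classic targets of the zinc-sensing factor MTF1. Of 18 tested members of the list of metallothioneins and zinc transporters, 6 rose and none fell, and the list's median statistic was 0.88, against -0.00245 over all tested genes. The 6 include MT2A and SLC30A1, whose sign set the direction taken here, so their rise is no result. Metallothionein genes of 1 family often move together, so the signs of the others are not independent of that choice. The authors' deposited table gave MT2A (chromosome 16, 56608199 to 56609497, GRCh38) a statistic of 18.0 (adjusted p = 4.11e-68) at a mean of 349. In the authors' deposited table MT1G followed with 11.6, SLC30A1 with 10.2, MT1E with 10.1 and MT1F with 7.39. SLC39A10, a zinc importer, also rose in the authors' deposited table, with an adjusted p of 1.22e-12 at a mean of 1472. An exporter and an importer of zinc were thus both called. MT1H, MT1X and MT1M, chosen here after their values were seen, lay below the tested range with means of 6.41, 11.4 and 4.36, and the authors' deposited table gave them positive statistics of 4.46, 3.35 and 3.22. MTF1 itself had a statistic of -0.72 in the authors' deposited table (adjusted p = 0.919). Metallothionein genes are near-identical copies, and reads can be split between them, so the division of signal among them is uncertain. Of the iron-handling list 1 of 13 tested members rose, the transferrin receptor TFRC, with a statistic of 4.79 in the authors' deposited table (adjusted p = 0.000296).

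The promoters of MT2A, MT1X and SLC30A1 are shown because metal-responsive transcription works through short repeated elements there. Each sequence is the 250 bases before the RefSeq gene start in GRCh38.p14, on the gene's strand, with capitals marking matches to the core of the metal response element, TGCACNC or TGCGCNC, on either strand; MT2A is chr16:56608334-56608583 (plus strand), MT1X is chr16:56682220-56682469 (plus strand) and SLC30A1 is chr1:211579162-211579411 (minus strand).
MT2A: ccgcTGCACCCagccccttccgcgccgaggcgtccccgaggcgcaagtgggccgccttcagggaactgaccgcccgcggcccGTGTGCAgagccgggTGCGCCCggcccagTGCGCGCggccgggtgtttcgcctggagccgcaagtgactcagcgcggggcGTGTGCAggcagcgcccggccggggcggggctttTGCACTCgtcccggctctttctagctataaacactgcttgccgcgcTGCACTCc
MT1X: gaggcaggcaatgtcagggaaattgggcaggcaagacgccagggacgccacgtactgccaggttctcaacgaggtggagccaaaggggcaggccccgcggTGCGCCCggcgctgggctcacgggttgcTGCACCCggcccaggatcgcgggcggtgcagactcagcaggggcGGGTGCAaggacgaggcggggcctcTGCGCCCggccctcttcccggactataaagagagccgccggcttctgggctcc
SLC30A1: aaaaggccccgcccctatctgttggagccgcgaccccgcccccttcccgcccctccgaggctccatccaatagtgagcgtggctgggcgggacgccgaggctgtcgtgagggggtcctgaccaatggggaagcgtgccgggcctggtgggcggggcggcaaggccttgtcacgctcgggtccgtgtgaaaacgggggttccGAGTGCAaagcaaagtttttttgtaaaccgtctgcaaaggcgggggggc
MT2A had 7 matches, MT1X 4 and SLC30A1 1, while SLC39A10 had none. Over 27305 RefSeq promoters of the same length, 24.7% held at least 1 match and 1.56% held 3 or more; of the 18 members of the metal list with a promoter in the table, 10 held at least 1 and 6 held 3 or more. These 18 are not the same genes as the 18 tested members above. Of the 3 called members with a promoter, 2 held at least 1 match and 1 held 3 or more. A match is a string of letters, not a shown binding site. MT1G, MT1E and MT1F were not among the promoters used here.

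MT2A and SLC30A1 differed from 0 with the same sign in all 4 lines, the sign that set the direction taken for SK-N-BE(2), and their fold changes were smaller in SK-N-BE(2). SLC30A1 had a prior-removed log2 fold change of 0.65 ± 0.0637 in SK-N-BE(2), against 3.13 ± 0.177 in IMR5, 3.88 ± 0.102 in LAN5 and 2.87 ± 0.101 in SK-N-FI (± standard error). MT2A had 2.24 ± 0.124 in SK-N-BE(2), against 7.61 ± 0.237 in IMR5, 7.81 ± 0.462 in LAN5 and 5.22 ± 0.194 in SK-N-FI; the equations that remove the prior have a second solution, which for MT2A in SK-N-BE(2) gives 3.96 ± 0.220, still below the other lines. The difference between SK-N-BE(2) and the mean of the sensitive lines was put to a Wald test (two-sided) of the prior-removed values, with Benjamini-Hochberg adjustment over the 8969 genes whose mean was 100 or more in each of the 4 tables; 5299 of these (59.1%) differed, 2929 with SK-N-BE(2) above and 2370 with it below. The error of this test holds the errors of the 4 lines and not the spread among the sensitive lines. A small p therefore does not show that SK-N-BE(2) stands apart from sensitive lines as a class. A difference can also rest on 1 sensitive line. Hereafter, lying above or below the sensitive lines means lying above or below their mean. In this test SLC30A1 differed by -2.64 (adjusted p = 2.69e-153) and MT2A by -4.64 (adjusted p = 4.86e-94). MT1G, MT1E and MT1F lay outside this test, with 2.80 ± 0.242, 2.46 ± 0.244 and 2.63 ± 0.355 in SK-N-BE(2), against 6.40, 8.13 and 6.79 in LAN5 and 6.32, 5.16 and 4.55 in SK-N-FI. In IMR5 no response of these 3 genes is shown: MT1G and MT1E had means of 0.561 and 0.461 in the authors' deposited table and no adjusted p, and MT1F was not listed. SLC39A10 went the other way, with 0.46 ± 0.0574 in SK-N-BE(2), against 0.08 in IMR5, -1.18 in LAN5 and 0.01 in SK-N-FI, a difference of 0.82 (adjusted p = 2.66e-23). TFRC had 0.20 ± 0.0425 in SK-N-BE(2), against 1.02 in IMR5, -0.02 in LAN5 and 1.42 in SK-N-FI, a difference of -0.60 (adjusted p = 1.83e-19).

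Genes that build lipids were the widest group to rise in SK-N-BE(2). Of 23 tested genes of fatty acid synthesis and desaturation 10 rose and none fell, with a median statistic of 2.81 and 21 of 23 above 0. Of 28 tested genes of cholesterol synthesis and uptake 7 rose and none fell, with a median of 2.33 and 27 of 28 above 0. When all genes with a p-value were adjusted together, 8 and 6 of these genes were called, and the calls of ACACA, ELOVL6 and SQLE were lost. Both pathways are driven by the SREBP factors, which leave the endoplasmic reticulum when sterols or unsaturated fatty acids run low and are held back there by INSIG1.

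Along the fatty acid route, the genes that rose cover the supply of acetyl-CoA, chain building, elongation and desaturation. ACLY, which splits citrate into cytosolic acetyl-CoA, had a statistic of 5.87 in the authors' deposited table and ACSS2, which makes acetyl-CoA from acetate, had 3.96. ACACA, which commits acetyl-CoA to the pathway, had 3.31 and FASN, the fatty acid synthase, had 4.38 in the authors' deposited table. ELOVL6, an elongase, reached 3.42 in the authors' deposited table. SCD (chromosome 10, 100347124 to 100364834, GRCh38), the desaturase that puts the first double bond into stearate, had the highest statistic of the list, 9.02 in the authors' deposited table (adjusted p = 3.62e-16), at a mean of 12938. FADS2, the first desaturase on the route to polyunsaturated fatty acids, had 4.49 in the authors' deposited table. ACSL3, which activates fatty acids, and LPIN1, a phosphatidate phosphatase, had 5.26 and 4.35 in the authors' deposited table, and SREBF1, which encodes SREBP-1, had 4.48. FADS2 shares its locus with FADS1 and FEN1, SREBF1 with RAI1 and ACSS2 with GGT7, and whether counting used strand is not given in the sources used here.

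In the cholesterol route the genes that rose included FDPS, which makes farnesyl diphosphate, FDFT1 and SQLE, which form and oxidize squalene, LSS, which closes the sterol rings, DHCR7, which carries out a late reduction, and the regulator INSIG1. INSIG1 had the highest statistic of the list, 5.07 in the authors' deposited table (adjusted p = 8.08e-05). The others lay between 3.49 for SQLE and 4.52 for FDPS in the authors' deposited table. HMGCS1, an early enzyme of the route, and SREBF2, which encodes SREBP-2, were not among the called genes: in the authors' deposited table HMGCS1 had 3.21 (adjusted p = 0.0535) and SREBF2 2.67 (adjusted p = 0.172), and both were chosen here after their values were seen. Of 10 tested sterol efflux genes and LXR targets 1 rose, the exporter ABCG1, with 4.52 in the authors' deposited table at a mean of 35.4. The sterol response element core TCACNCCAC, searched on both strands, occurred in 0.875% of the 27305 promoters; it was in 1 of 23 cholesterol and 1 of 23 fatty acid members, and in none of the 4 and 9 called members with a promoter in the table.

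Fold changes were small and, for many of these genes, of opposite sign in the sensitive lines. SCD had a prior-removed log2 fold change of 0.34 ± 0.0375 in SK-N-BE(2), against -1.05 ± 0.0646 in IMR5, -1.04 ± 0.0576 in LAN5 and 0.10 ± 0.108 in SK-N-FI, a difference from their mean of 1.00 (adjusted p = 4.98e-61). FADS2 had 0.20 in SK-N-BE(2), against -1.12 in IMR5, -0.57 in LAN5 and -0.67 in SK-N-FI (difference 0.99, adjusted p = 3.49e-52). FADS2, ACLY, FASN, FDPS, SQLE and ACACA were negative in each of the 3 sensitive lines. In the difference test, SK-N-BE(2) lay above the sensitive lines for 15 of 21 fatty acid genes and below them for 2, with medians of 0.16 in SK-N-BE(2) and -0.16 in the sensitive lines. For cholesterol genes it lay above them for 19 of 26 and below them for 3, with medians of 0.14 in SK-N-BE(2) and -0.17 in the sensitive lines. ACSS2 rose with similar size in all 4 lines, 0.36 ± 0.0919 in SK-N-BE(2) against a mean of 0.53 in the sensitive lines, and its difference of -0.16 ± 0.117 did not pass (adjusted p = 0.226).

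**Figure D2:**
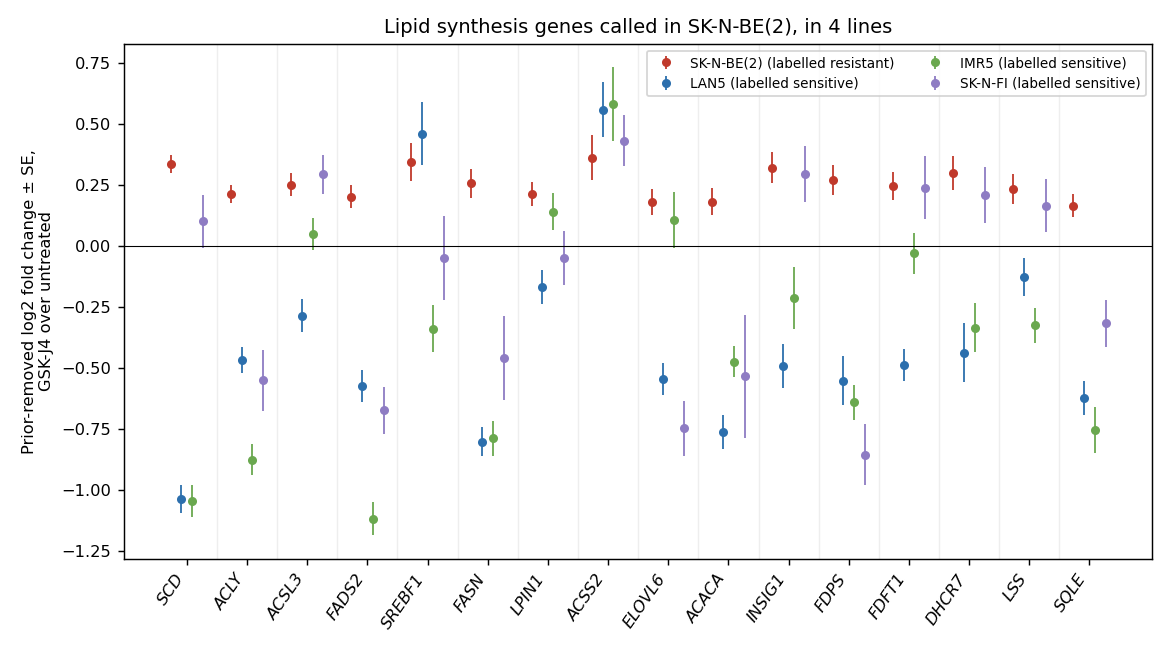
Prior-removed log2 fold change of GSK-J4 over untreated, with its standard error, for 16 lipid synthesis genes called in SK-N-BE(2) (red) and for the same genes in LAN5, IMR5 and SK-N-FI. All 16 lie above 0 in SK-N-BE(2), where the calls chose them, at up to 0.36 for ACSS2, and SCD and FADS2 reach -1.05 and -1.12 in IMR5.

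Several noradrenergic identity genes fell. Of 22 tested adrenergic core transcription factors 7 fell and 1 rose, and the median statistic was -1.21. Of 24 tested catecholamine and secretory granule genes 6 fell and none rose, with a median of -1.06. Of the 10 adrenergic neuroblastoma markers 5 fell, namely TH, PHOX2A, HAND2, GATA3 and CHGA.

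Among the factors, in the authors' deposited table TBX3, a T-box factor, had -6.42 and its relative TBX2 -3.29. GATA3, PHOX2A and HAND2, which drive sympathetic differentiation, had -4.46, -4.25 and -4.09 in the authors' deposited table, and TFAP2B, a neural crest factor, had -3.42. EYA1, a cofactor of homeobox factors, was the one that rose, with 3.37 in the authors' deposited table, and its call, with those of TBX2, TFAP2B and the granule gene CYB561, was lost when all genes with a p-value were adjusted together. MYCN, chosen here after its value was seen, had 2.72 in the authors' deposited table (adjusted p = 0.157). HAND2 overlaps HAND2-AS1 and PHOX2A overlaps INPPL1 on the opposite strand.

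Among effectors, TH (chromosome 11, 2163929 to 2171877, GRCh38), the rate-limiting enzyme of catecholamine synthesis, had the lowest statistic of all, -11.2 in the authors' deposited table (adjusted p = 1.24e-25) at a mean of 3163. SLC6A2, the noradrenaline transporter through which MIBG enters tumour cells, had -6.54 in the authors' deposited table; its locus holds a second called gene of the same strand, ENSG00000278928, with -4.82. The granule proteins CHGB, CHGA and VGF had -3.91, -3.79 and -3.80 in the authors' deposited table, and CYB561, which feeds electrons into granules, had -3.52. DBH, which makes noradrenaline from dopamine, had -2.26 in the authors' deposited table (adjusted p = 0.338), chosen here after its value was seen.

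In the difference test SK-N-BE(2) lay above the sensitive lines for most of the factors and below them for most of the granule genes. TH had a prior-removed log2 fold change of -0.66 ± 0.0591 in SK-N-BE(2) and -0.87 ± 0.0849 in LAN5, and no prior-removed value was obtained in the other 2 lines. TBX3 had -0.27 in SK-N-BE(2), against -1.32 in IMR5, -1.24 in LAN5 and -0.40 in SK-N-FI (difference 0.72, adjusted p = 4.37e-16). For 11 of the 15 factors in the difference test SK-N-BE(2) lay above the sensitive lines and for 2 below, with medians of -0.15 in SK-N-BE(2) and -0.73 in the sensitive lines. For the 14 catecholamine and granule genes in the difference test SK-N-BE(2) lay above the sensitive lines for 3 and below for 8, with medians of -0.02 in SK-N-BE(2) and 0.45 in the sensitive lines. TBX2 and VGF lay below the sensitive lines. TBX2 had -0.23 in SK-N-BE(2), against 0.12 in IMR5, 0.88 in LAN5 and 0.43 in SK-N-FI (difference -0.71, adjusted p = 5.41e-15). VGF had -0.35 ± 0.0925 in SK-N-BE(2), against 4.63 in IMR5, 3.17 in LAN5 and 0.81 in SK-N-FI (difference -3.22, adjusted p = 3.64e-83). SLC6A2 had -0.74 ± 0.113 in SK-N-BE(2) against a mean of -0.99 in the sensitive lines, and its difference of 0.25 ± 0.131 did not pass (adjusted p = 0.0817).

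**Figure D3:**
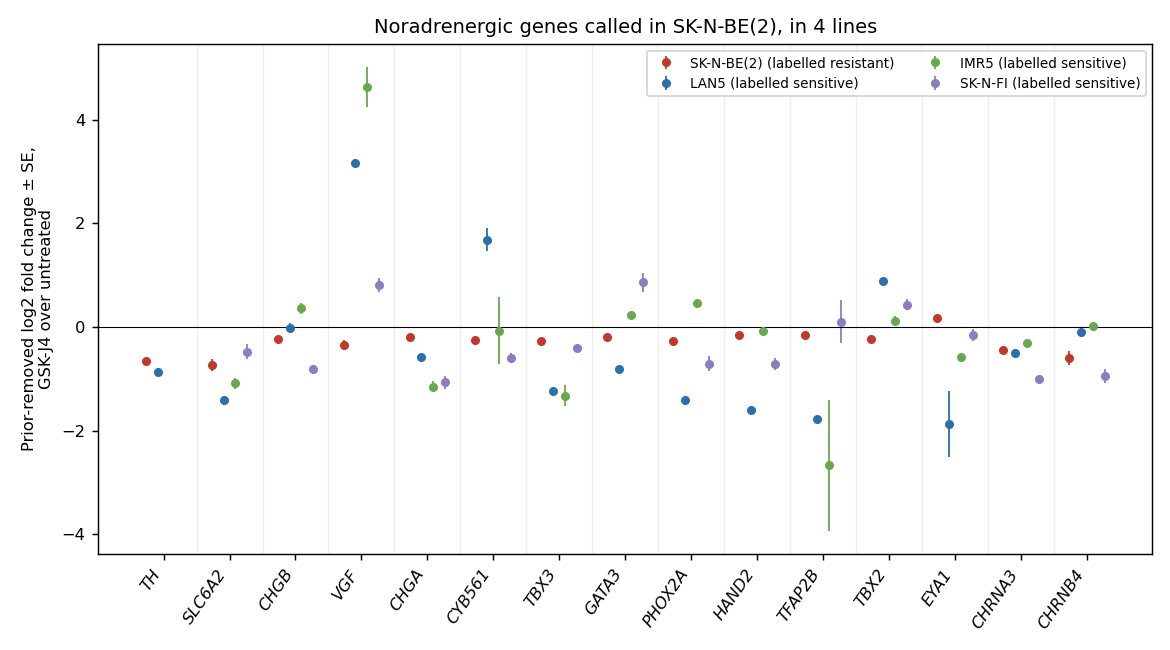
Prior-removed log2 fold change of GSK-J4 over untreated, with its standard error, for 15 noradrenergic genes called in SK-N-BE(2) (red) and for the same genes in LAN5, IMR5 and SK-N-FI, where values were used. SK-N-BE(2) values lie between -0.74 for SLC6A2 and 0.18 for EYA1, the only one above 0, while IMR5 reaches 4.63 for VGF.

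Neuronal structure genes were mixed. Of 29 tested genes of the neuronal cytoskeleton and synapse 2 rose, among them CNTN1, an axonal adhesion protein, and NEFM, a neurofilament subunit, fell; 1 of the genes that rose, not CNTN1, lost its call when all genes were adjusted together. CNTN1 had 6.60 and NEFM -7.20 in the authors' deposited table, and the list's median was 0.20. CNTN1 had a prior-removed log2 fold change of 0.29 in SK-N-BE(2), against -0.0026 in IMR5, -1.50 in LAN5 and -0.87 in SK-N-FI (difference 1.08, adjusted p = 3.59e-38). NEFM had -0.30 in SK-N-BE(2), against 0.33 in IMR5, -0.14 in LAN5 and 0.19 in SK-N-FI (difference -0.43, adjusted p = 1.63e-08). Of 10 tested neurotrophin, GDNF and ALK receptors, GFRA2, a neurturin co-receptor, fell, with -3.28 in the authors' deposited table; the call was lost when all genes, or those with a mean of at least 10, were adjusted together. With 2.48% of all tested genes called, this 1 call says little about the list.

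A few receptor genes rose, and matrix genes were called in both directions. Over all tested genes 1.62% were called higher and 0.858% lower, so 1 or 2 calls in a list say little about the family. Outside these lists, the matrix genes COL6A6 and MMP2, given below, fell. Of 26 other receptor tyrosine kinases PDGFRB, a platelet-derived growth factor receptor, and EPHA2, an ephrin receptor, rose, none fell and the median was 0.94. PDGFRB had 7.77 in the authors' deposited table (adjusted p = 6.80e-12) and EPHA2 had 4.36. PDGFRB had a prior-removed log2 fold change of 0.67 ± 0.0865 in SK-N-BE(2), against -0.36 in IMR5, 0.27 in LAN5 and 0.17 in SK-N-FI (difference 0.65, adjusted p = 9.76e-08). Of 28 collagens, laminins and integrins COL3A1, a fibrillar collagen, rose with 6.37 and COL1A1, a type I collagen chain, fell with -3.92 in the authors' deposited table. Of 20 tested mesenchymal-state genes CD44, the hyaluronan receptor, rose, with 3.49 in the authors' deposited table, and the call was lost when all genes were adjusted together. PDGFRB, COL3A1 and COL1A1 are also fibroblast markers, and LUM, another, rose with 5.61 in the authors' deposited table. Of the 8 tested fibroblast and muscle markers 3 were thus called higher and 1 lower. The part of fibroblast-like cells in these counts was not tested.

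Several targets of BMP signalling fell. BMP receptors act through SMAD factors to induce the ID genes, which block proneural factors, and the inhibitor SMAD6. Of 21 tested BMP, ID and Notch genes 3 fell and 1 rose, with a median of 0.35. In the authors' deposited table ID3 had -5.56, SMAD6 -5.08 and ID1 -4.48. The receptor BMPR1B rose, with 5.72 in the authors' deposited table. ID3 had a prior-removed log2 fold change of -0.48 ± 0.0858 in SK-N-BE(2), against 0.98 in IMR5, 0.52 in LAN5 and -0.45 in SK-N-FI (difference -0.83, adjusted p = 2.67e-12). ID1 had -0.43 ± 0.0962 in SK-N-BE(2), against 0.42 in IMR5, 0.46 in LAN5 and -0.12 in SK-N-FI (difference -0.69, adjusted p = 2.75e-08). SMAD6 went the other way, with -0.61 ± 0.121 in SK-N-BE(2), against -1.35 in IMR5, -0.77 in LAN5 and -0.95 in SK-N-FI. Its difference in the same test was 0.41 (adjusted p = 0.00576), and its direction depended on the choice of solution. Of the 10 list members in the difference test, SK-N-BE(2) lay above the sensitive lines for 4 and below for 3.

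Immediate early genes, induced within minutes of growth factor signalling, and ERK feedback genes had 2 of 30 members lower and 1 higher. JUNB and EGR1, transcription factors of that class, had -3.78 and -3.71 in the authors' deposited table, and PHLDA1, an early response gene, had 3.73. EGR1 had a prior-removed log2 fold change of -0.57 ± 0.152 in SK-N-BE(2), against 4.90 in IMR5, 2.85 in LAN5 and 0.25 in SK-N-FI (difference -3.23, adjusted p = 7.11e-53), so its sign was opposite in each of them. SK-N-BE(2) lay below the sensitive lines for 20 of the 21 members in the difference test and above for none. Their medians were 0.01 in SK-N-BE(2) and 1.02 in the sensitive lines. Of 13 retinoid-handling genes RARG, a retinoic acid receptor, rose with 3.55 and STRA6, a retinol-binding protein receptor, fell with -3.86 in the authors' deposited table. IGFBP3, which binds insulin-like growth factors, was the only one of 11 IGF genes to change, with -6.32 in the authors' deposited table. With 2.48% of all tested genes called, single calls in these lists say little about the lists.

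Few death and survival genes were called, while 2.48% of all tested genes were. BMF, a BH3-only protein, was the only one of 9 tested pro-apoptotic BH3-only genes to change, and it fell, with -7.57 in the authors' deposited table (adjusted p = 2.74e-11). Its prior-removed log2 fold change was -0.96 ± 0.127 in SK-N-BE(2), against 0.38 in IMR5, -0.78 in LAN5 and -0.83 in SK-N-FI. BBC3, a BH3-only gene, had -0.05 ± 0.282 in SK-N-BE(2) (95% interval -0.61 to 0.50), against 3.43 in IMR5, 2.78 in LAN5 and 2.00 in SK-N-FI, where its sign set the direction and is no result; with a mean of 42.6 it lay outside the difference test. None of 9 tested BCL-2 survival genes and effectors was called, the highest statistic being 1.62 for BOK and the lowest -1.92 for BCL2 in the authors' deposited table, and none had an unadjusted p under 0.05. Of 25 tested members of the p53 target list 2 fell, among them TP53I3, with -4.21 in the authors' deposited table, and none rose. Over the p53 list, SK-N-BE(2) lay below the sensitive lines for 14 of 18 genes in the difference test and above for 1, with medians of -0.01 in SK-N-BE(2) and 0.79 in the sensitive lines.

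The stress response that ATF4 and CHOP drive, which raises amino acid synthesis and transport genes when translation is throttled, was not called in SK-N-BE(2). By the authors' Wald test with Benjamini-Hochberg adjustment none of 43 tested targets was called, while 2.48% of all tested genes were. At an unadjusted p under 0.05, 5 were higher and 5 lower, while 10.3% of all tested genes had such a p. By that count the list was not quieter than other genes. Its median statistic was -0.57, with 31 of 43 below 0. The highest was DDR2 with 2.84 and the lowest VLDLR with -3.14 in the authors' deposited table. For 39 of the 43, the 95% interval of the prior-removed log2 fold change lay within 0.5 of 0. SK-N-BE(2) lay below the sensitive lines for 34 of 37 targets in the difference test and above for 1, with medians of -0.04 in SK-N-BE(2) and 1.26 in the sensitive lines. DDIT3, ASNS and TRIB3, chosen here after their values were seen, had statistics of -0.54, -0.92 and -1.86 in the authors' deposited table. None of 23 NRF2 genes was called (2 higher and 1 lower at an unadjusted p under 0.05), nor any of 20 endoplasmic reticulum chaperones (1 and 1) or 14 cytosolic heat shock genes (1 and 0). Their highest members were TXNRD1 with 2.72, PDIA6 with 2.16 and HSPA4 with 2.14 in the authors' deposited table, and their lowest were KEAP1 with -2.53, HSP90B1 with -2.07 and HSPH1 with -1.52. Of 31 hypoxia targets EGLN3, an oxygen-sensing prolyl hydroxylase, fell, with -3.63 in the authors' deposited table.

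Few cell cycle genes were called, near the 2.48% called among all tested genes. Of 54 G2/M genes KIF20A, a mitotic kinesin, rose, with 3.32 in the authors' deposited table; the call was lost when all genes were adjusted together, and the gene overlaps BRD8 and CDC23 on the opposite strand. All 54 had a 95% interval within 0.5 of 0 on the prior-removed log2 scale. Of 48 G1/S and replication genes RRM2, a subunit of ribonucleotide reductase, fell, with -4.24 in the authors' deposited table. SK-N-BE(2) lay above the sensitive lines for 50 of 54 G2/M genes, with medians of 0.03 in SK-N-BE(2) and -0.81 in the sensitive lines. It lay above them for 43 of 47 G1/S genes in the difference test and below for 1, with medians of -0.01 in SK-N-BE(2) and -0.79 in the sensitive lines. KIF20A had 0.16 in SK-N-BE(2), against -0.94 in IMR5, -3.37 in LAN5 and -2.09 in SK-N-FI, the highest statistic of the difference among called genes (difference 2.30, adjusted p = 6.10e-192). Of 40 ribosome biogenesis and MYC targets UBTF, a factor of ribosomal RNA transcription, fell with -3.43, and of 40 ribosomal protein genes RPL28 fell with -3.86 in the authors' deposited table. The call of UBTF was lost when all genes were adjusted together, and RPL28 overlaps UBE2S on the opposite strand. The ribosomal protein list leaned downward, with 30 of 40 below 0 and a median of -0.71. SK-N-BE(2) lay below the sensitive lines for 34 of these 40 and above for none. Of 13 mitochondrially encoded mRNAs MT-ND1 and MT-ND3, subunits of respiratory complex I, fell with -5.04 and -3.86 in the authors' deposited table, while the list's median was 1.24.

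No gene of the compound's own target system was called, but only 2.48% of all tested genes were. At that share a list as short as those in this paragraph would often hold no call. None of 13 genes of the H3K27 demethylases and PRC2 passed the authors' Wald test. Of these, 1 was lower at an unadjusted p under 0.05, while 10.3% of all tested genes had such a p. All 13 had a 95% interval within 0.5 of 0. The highest was RBBP7 with 1.79 and the lowest EZH2, the methyltransferase of PRC2, with -2.38 in the authors' deposited table (adjusted p = 0.279). KDM6B had a prior-removed log2 fold change of -0.05 ± 0.0715 in SK-N-BE(2), against 1.18 in IMR5, 0.55 in LAN5 and 0.85 in SK-N-FI (difference -0.91, adjusted p = 4.31e-20). KDM6A had -0.06 ± 0.0909 in SK-N-BE(2), against 0.42 in IMR5, 0.51 in LAN5 and 0.40 in SK-N-FI (difference -0.50, adjusted p = 3.43e-05). None of 20 other Jumonji demethylases was called (1 lower at an unadjusted p under 0.05), from JMJD1C at 1.32 to KDM3A at -2.47 in the authors' deposited table. None of 11 tested HOX genes was called or had an unadjusted p under 0.05, from HOXD8 at 1.53 to HOXD9 at -1.51 in the authors' deposited table. Of 10 tested drug efflux pumps and carboxylesterases none was called (2 higher at an unadjusted p under 0.05); BCHE, an esterase, had 2.90 (adjusted p = 0.109) and ABCB1, a multidrug pump, -0.78 in the authors' deposited table. None of 22 interferon-stimulated genes was called (5 higher at an unadjusted p under 0.05), from TAP1 at 2.31 to IRF7 at -0.52, nor any of 21 glycolysis genes (5 higher), from HK1 at 3.21 (adjusted p = 0.0535) to SLC2A1 at -1.58 in the authors' deposited table. Both lists leaned upward, with 20 of 22 interferon-stimulated and 15 of 21 glycolysis genes above 0 and medians of 0.97 and 1.15.

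**Figure D4:**
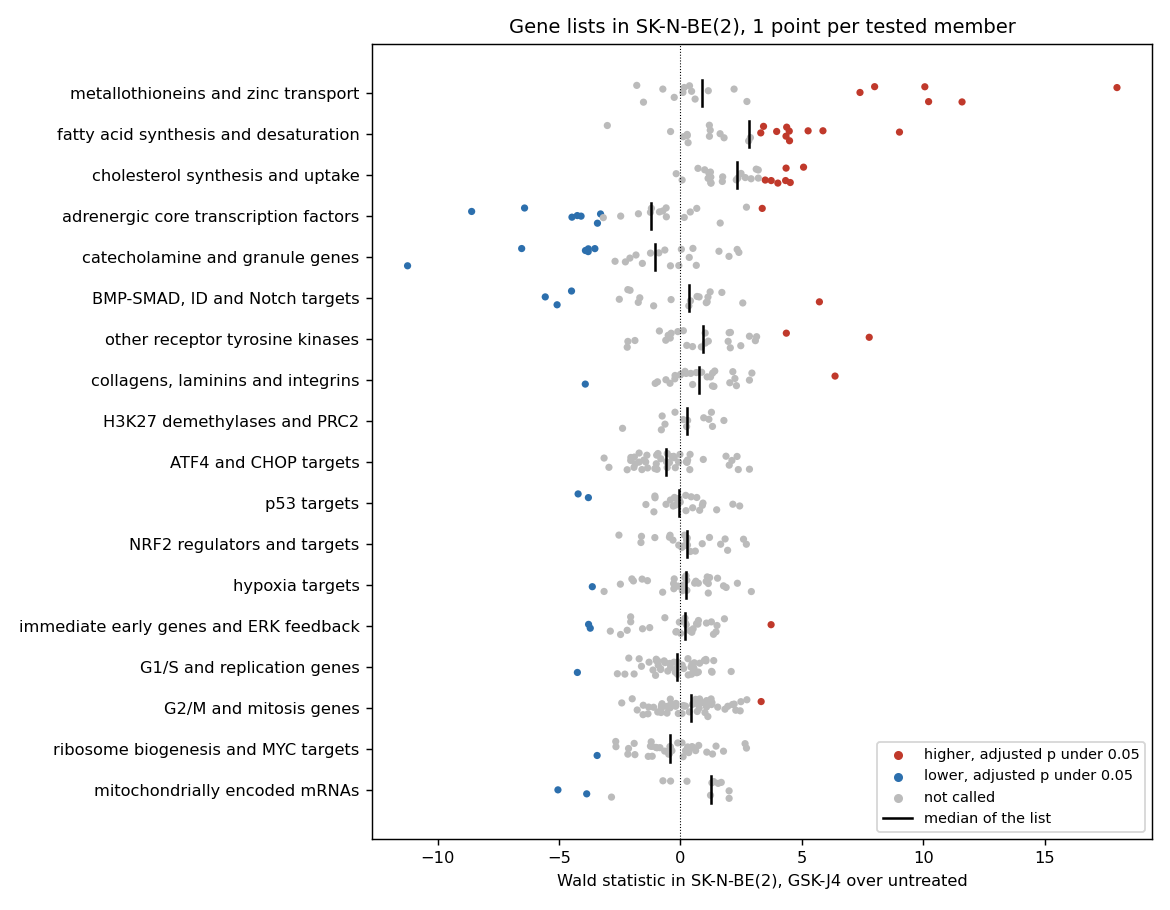
Wald statistic of GSK-J4 over untreated in SK-N-BE(2) for the tested members of 18 gene lists (1 point per gene; red higher, blue lower, grey not called; vertical scatter only separates points; black bars are list medians). Fatty acid and cholesterol genes lie mostly right of 0 (medians 2.81 and 2.33), adrenergic factors and catecholamine genes mostly left of it (medians -1.21 and -1.06), and ATF4 and CHOP targets and H3K27 genes have no called member.

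Further genes with extreme statistics belong to no list above. Those that rose were PTCHD1, a membrane protein related to Patched receptors (9.65), ABCA12, a lipid transporter known from skin (8.05), LTBP1, which holds latent TGF-beta in the matrix (7.58), ENPP2, which encodes autotaxin (7.48), TMEM100 (6.87) and RNF150 (6.70), all values being statistics in the authors' deposited table. PTCHD1 had a prior-removed log2 fold change of 0.81 ± 0.0840 in SK-N-BE(2), against 0.23 ± 0.465 in LAN5 and 0.05 ± 0.0989 in IMR5; it was not tested for a difference. Those that fell were FAM167A (-8.53), SAMD11 (-8.24), RBM3, a cold-inducible RNA-binding protein (-8.11), COL6A6, a collagen VI chain (-8.07), CHRNA3, a nicotinic receptor subunit (-7.70), PLXNA4, a semaphorin receptor (-7.53), HMGN2, a nucleosome-binding protein (-6.80), MMP2, a matrix metalloproteinase (-6.63), and CERK, ceramide kinase (-6.42), again statistics in the authors' deposited table. SAMD11 had the largest prior-removed decrease of those named, -1.20 ± 0.145 in SK-N-BE(2), against -0.37 in IMR5, 0.69 in LAN5 and 1.17 in SK-N-FI (difference -1.69, adjusted p = 3.00e-24), but it overlaps NOC2L, whose mean of 1477 exceeds its own of 177. MMP2 had -0.32 in SK-N-BE(2), against 0.45 in IMR5, 0.31 in LAN5 and -0.23 in SK-N-FI (difference -0.50, adjusted p = 2.80e-12). GAS5, a long noncoding RNA that hosts small nucleolar RNAs, had -0.15 in SK-N-BE(2), against 1.02 in IMR5, 0.62 in LAN5 and 1.44 in SK-N-FI (difference -1.18, adjusted p = 1.86e-52), but its call in SK-N-BE(2) was lost when all genes were adjusted together.

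Called genes of SK-N-BE(2) were called in both directions in the sensitive lines. Of the 217 genes that rose in SK-N-BE(2), 212 were tested in LAN5, where 81 (38.2%) also rose and 85 (40.1%) fell, while 27.2% of all genes tested in both rose there and 34.5% fell. In IMR5, 85 of 199 (42.7%) also rose and 43 fell, against 31.2% and 32.5% of all genes; in SK-N-FI, 49 of 203 (24.1%) also rose and 45 fell, against 22.4% and 21.6%. Of the genes that fell in SK-N-BE(2), 57 of 113 (50.4%) also fell in LAN5 and 29 rose, 41 of 111 (36.9%) fell in IMR5 and 41 rose, and 48 of 111 (43.2%) fell in SK-N-FI and 20 rose. These counts rest on the direction taken for the SK-N-BE(2) table; if it were reversed, the counts of the same and the opposite direction would change places. The shared genes are 2.24%, 2.11% and 1.67% of the genes higher in LAN5, IMR5 and SK-N-FI, and 1.24%, 0.979% and 1.70% of those lower there. Across genes, which are not independent replicates, Spearman's rho of the Wald statistics was 0.0520 with LAN5, 0.116 with IMR5 and 0.0199 with SK-N-FI (13273, 12879 and 13117 genes), while pairs of sensitive lines gave 0.378, 0.290 and 0.373. Weak genes enter both, and libraries are not shared between lines.

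By the difference test, 94 of the 118 higher genes it covers differed from the sensitive lines: 72 lay above the sensitive mean in SK-N-BE(2) and 22 below it, and 63 of the 94 had opposite signs. Of the 79 lower genes it covers 66 differed, 38 lying below the sensitive mean in SK-N-BE(2) and 28 above it, and 36 of the 66 had opposite signs. Among all genes covered, passing or not, 55 of the 118 higher and 43 of the 79 lower genes had the sign of the sensitive mean. A called value set against a mean of the other sign tends to pass. The share of opposite signs among passing genes therefore overstates their share among the genes covered. Over all genes the test called 59.1%. The median prior-removed log2 fold change of the higher genes was 0.25 in SK-N-BE(2) and -0.03 in the sensitive lines, and that of the lower genes was -0.26 in SK-N-BE(2) and -0.16 in the sensitive lines. These genes were called in SK-N-BE(2), so their SK-N-BE(2) values lie away from 0 by choice.

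**Figure D5:**
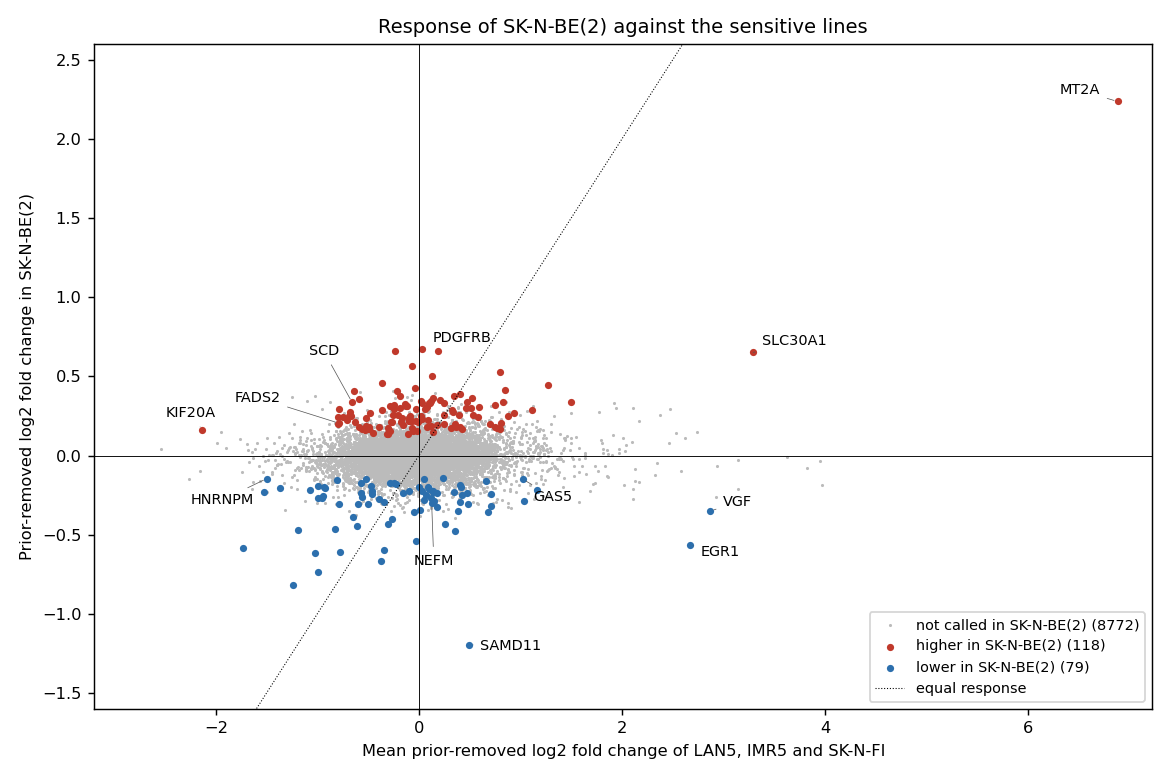
Prior-removed log2 fold change of GSK-J4 over untreated in SK-N-BE(2) (vertical axis) against the mean over LAN5, IMR5 and SK-N-FI (horizontal axis, drawn to a different scale), 1 point per gene of the 8969 compared, with genes called in SK-N-BE(2) in red and blue and a dotted line of equal response. Genes spread along the horizontal axis while SK-N-BE(2) values stay near 0, with MT2A at 2.24 and SAMD11 at -1.20 as the extremes.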

How the data were processed

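Per the labels' protocols, poly(A) RNA of neuroblastoma cells went into stranded mRNA libraries. Per the submitters' processing notes, FastQC, STAR and DESeq2 were used with hg38, without versions; the annotation, the counting tool, its use of strand and the model formula were not given in the sources used here. Each line has 1 deposited table of the authors' comparison. Its signal column is, per the file headers, a mean of normalized counts; fold changes and their standard errors are log2 values as deposited; the deposited Wald statistic is a score; and each p-value, raw or adjusted, was deposited by the authors. Recomputing both p-values from the deposited statistics changed none by more than 0.00205 on the log10 scale. The table read as SK-N-FI carries a name close to that line's but not spelled like it, and was given to that line from the likeness and because the other tables match the other lines.

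A design for counts per library could not be used, so the authors' calls were taken as deposited and nothing within SK-N-BE(2) was tested again. The depth per library is unknown. To remove the prior, its SD was set to 2 times the largest deposited standard error and the unshrunken error was solved for in each gene; of the pair of solutions the smaller error was taken above the mean where the running median error (501 genes) peaked (134 in SK-N-BE(2)) and the larger below it. In SK-N-BE(2) the fold change is then the statistic times this error. For genes near that mean both solutions are close or may be exchanged; among named genes with an error above 0.95 of the largest are MT2A, SAMD11, BMF, EGR1, SMAD6, EPHA2 and RARG. The difference test was tried on simulated data in which the sensitive lines had no response and the prior was the one assumed here. That trial could not test the spread among sensitive lines or a wrong prior. Python 3.11.15, numpy 2.4.6, pandas 2.3.3 and scipy 1.17.1 were used.

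The table's Ensembl IDs were matched to symbols for 28849 of 29328 genes by a reference table, 92 had a name in the file only and 387 had none; coordinates are from GENCODE release 29 and promoters from RefSeq. The comparison, its 40 gene lists and the 8 lists added later were chosen with earlier results of these data known. Named genes are the 15 highest and 15 lowest statistics among called genes, every called list member, KDM6A, KDM6B, EZH2 and BBC3, the highest and lowest member of a list without a call, and the 5 highest and 5 lowest statistics of the difference among called genes. Some of these genes are not reported here. Of the 127 named genes 24 overlap a listed gene with at least 10% of their mean. Alternatives were other filters and thresholds for the calls, and, for the difference, other mean limits, deposited values, each sensitive line left out and other choices of solution.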

Additional observations from a re-analysis of the deposited data

Results flagged for a closer look

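For 29 of the named genes reported here that were called in SK-N-BE(2), the difference from the mean of the sensitive lines passed the Wald test with Benjamini-Hochberg adjustment and the signs were opposite. The opposite sign is that of the mean and not of each line. RNF150 was also called higher in IMR5 and INSIG1 in SK-N-FI. SAMD11 was also called lower in IMR5, ID3 in SK-N-FI, and GATA3 and RPL28 in LAN5. None of the rest was called in a sensitive line in the direction it had in SK-N-BE(2). All values below are differences of prior-removed log2 fold changes, SK-N-BE(2) minus the mean of LAN5, IMR5 and SK-N-FI. The comparison called 59.1% of all genes compared.

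SK-N-BE(2) lay above the sensitive lines in the fatty acid genes SCD (0.998), FADS2 (0.992), FASN (0.940), ACLY (0.845), ACACA (0.771), ELOVL6 (0.576) and LPIN1 (0.240). It also lay above them in the cholesterol genes FDPS (0.955), SQLE (0.730), DHCR7 (0.486), INSIG1 (0.459), FDFT1 (0.341) and LSS (0.330). The differences of FDFT1 and LPIN1 did not pass without LAN5. The same direction held for the kinesin KIF20A (2.30), the adhesion protein CNTN1 (1.08), the zinc importer SLC39A10 (0.821) and RNF150 (0.563), whose difference did not pass without LAN5.

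SK-N-BE(2) lay below the sensitive lines in the early response genes EGR1 (-3.23) and JUNB (-1.02), the granule protein VGF (-3.22), the noncoding RNA GAS5 (-1.18) and SAMD11 (-1.69). It lay below them in the BMP targets ID3 (-0.831) and ID1 (-0.688), the factors TBX2 (-0.713) and GATA3 (-0.290), the matrix protease MMP2 (-0.502), the neurofilament gene NEFM (-0.429) and the ribosomal protein gene RPL28 (-0.578). GATA3 did not keep this direction without SK-N-FI. EGR1 and SAMD11 have errors near the point where the pair of prior-removed solutions meet.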

How the results depend on the processing

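Within SK-N-BE(2), a threshold of 0.01 in place of 0.05 left 170 called genes, 111 higher and 59 lower, all among the 332. Adjusting all genes with a p-value together left 232, of which 230 were shared, and the remaining filters, the threshold of 0.1 and p-values from the fold change over its error gave between 306 and 449.

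The 5299 differences between SK-N-BE(2) and the sensitive lines ranged from 3434 to 5811 over the alternatives. An alternative added after the data were seen, the larger error for every gene with a SK-N-BE(2) mean under 1000, gave 3434, 1471 of them with SK-N-BE(2) lower; by its construction it has larger errors. Among named genes these differences changed direction: under that alternative PHLDA1 (0.20), SLC2A1 (-0.0722), TP53I3 (-0.99) and SMAD6 (-0.13); without LAN5 PHLDA1 (0.0163) and PHOX2A (-0.14); without IMR5 HSPH1 (-0.12) and SLC2A1 (-0.17); without SK-N-FI GATA3 (0.10) and CHRNA3 (-0.0429). The cause was not tested.

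No paired analysis was possible because the tables used hold no values of single libraries; for the same reason other size factors, count filters and leaving out single libraries were not run. Genes under a mean of 26.2 were outside the authors' adjustment, and the share with an unadjusted p under 0.05 was 0.292% below a mean of 10, against 15.6% at 1000 and over, so absence of a call in weak genes is limited by their counts.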

Other observations

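Smaller groups, put together after the values were seen and given without a test, held further genes called in SK-N-BE(2). Of 6 tested nicotinic receptor subunits CHRNA3 and CHRNB4, partners in the ganglionic receptor, both fell, with statistics of -7.70 and -4.28 in the authors' deposited table. Of 5 tested DLX homeobox factors DLX1, DLX2 and DLX3 fell, between -3.37 and -3.52 in the authors' deposited table, and these 3 calls were lost when all genes with a p-value were adjusted together. The cold-inducible RNA-binding proteins RBM3 and CIRBP both fell, with -8.11 and -4.87 in the authors' deposited table. Of 33 hnRNP and SR splicing proteins 3 fell, among them SRSF5 and HNRNPM, and 26 had a statistic below 0, while 6715 of 13407 tested genes did. HNRNPM had a prior-removed log2 fold change of -0.15 in SK-N-BE(2), against -2.43 in IMR5, -0.83 in LAN5 and -1.23 in SK-N-FI.

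Of 8 tested antagonists of BMP and WNT ligands GREM1 and DKK1 fell, with -6.29 and -6.30 in the authors' deposited table. CCND1, which encodes cyclin D1, fell with -6.38 in the authors' deposited table, and the other 3 tested G1 cyclins were not called. Both tested subunits of soluble guanylyl cyclase, the nitric oxide receptor, rose: GUCY1B1 with 3.63 and GUCY1A1 with 3.36 in the authors' deposited table, the call of GUCY1A1 being lost under the same adjustment. At the imprinted locus on chromosome 14, DLK1 and MEG3 both rose, with 4.69 and 4.67 in the authors' deposited table. DLK1 was also the only member of 15 tested GD2 synthesis genes and surface targets of therapy that rose, and SLC6A2 the only one that fell. By chromosome, 8 of 845 tested genes on chromosome 19 were called, 1 higher and 7 lower, with a median statistic of -0.36. Over all tested genes 1.62% were called higher and 0.858% lower, and the share lower on chromosome 19 was close to the latter. Chromosome 13 had no called gene among 212, and the mitochondrial genome had 2 lower among 19 (10.5%). These chromosomes were picked after their values were seen.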
